A study of Bos taurus with 6 samples.

Results

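The IGF binding proteins are a family of secreted proteins that hold insulin-like growth factors IGF1 and IGF2 in blood and in the matrix around cells. They set how much of the growth factors reaches the type 1 receptor (IGF1R), and proteases that cut them set the growth factors free. In adipose tissue they are made by preadipocytes, fibroblasts, vessel cells and adipocytes, and IGF signaling is known to act on the growth and differentiation of preadipocytes. The family was chosen here by gene symbol, IGFBP1 to IGFBP7, and 6 of these 7 genes were analysed, among 25444 genes in the mRNA counts of intramuscular fat (IMF) from Qinchuan cattle. IGFBP1, which is known mainly from the liver, was not analysed here.

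The comparison was between castrated males (steers) and intact males (bulls), with 1 mRNA library per group. Each library was a pool of RNA with the same contribution from every animal, of which there were 6 per group according to the series' design and 3 according to the sample labels. Both groups were of 1 breed, were sired by 1 bull, were weaned at 3 months, received the same diet and were slaughtered at 24 months, and the steers had been castrated surgically at 6 months. The IMF was dissected from the sternomandibularis muscle and the libraries were read on an Ion Proton sequencer. The raw counts summed to 12677375 in steers and 9868415 in bulls. Their size factors, by median of ratios, were 1.04 and 0.959, and a count divided by its size factor is called a scaled count below, and the log2 fold change of steers over bulls is written log2FC. Since there was no replicate of either group, every interval below covers counting error only and every test compares 2 pooled libraries and not castration as such.

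Adipocyte transcripts were abundant in both libraries, with 41691 counts in the steer library and 40001 in the bull library over the 9 adipocyte markers analysed, ADIPOQ, PLIN1 and CIDEC among them, and none of these 9 was at 0. Transcripts of skeletal muscle were present too, with 30728 and 45299 counts over 10 markers, of which 1 was called higher in steers and 3 were called lower. By the same threshold, given below, 4.66% of all tested genes were called higher in steers and 8.5% lower. In bulk tissue fewer cells of a type and less RNA per cell cannot be told apart, which holds for each gene below.

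None of the 6 IGF binding proteins passed the threshold used for calling a gene, a Benjamini-Hochberg adjusted p under 0.05 in a two-sided exact binomial test together with a fold change over 2. Of all 17752 tested genes, those with at least 1 count, 13.2% were called, 4.66% as higher in steers and 8.5% as lower. Among the 10464 genes with at least 100 counts over both libraries, which include each member but IGFBP2, 9.97% were called, 3.3% as higher and 6.67% as lower. By the adjusted p alone, 5 of the 6 members differed between the libraries, 4 of them with more scaled counts in steers (IGFBP4, IGFBP5, IGFBP6 and IGFBP7) and 1 with fewer (IGFBP3). At these depths that was a common outcome, since 39.3% of all tested genes had such a p, 20.4% as higher in steers and 18.9% as lower. For the genes with at least 100 counts it was 53.3%, with 29.5% higher and 23.8% lower. These p-values hold counting error only. With a coefficient of variation of 0.2 or of 0.4 between pools put into edgeR's exact test, values that were assumed and not measured, 0 of the 6 members had an adjusted p under 0.05. The median log2FC of the 6 members was 0.51, which lies between IGFBP7 at 0.41 and the scarce IGFBP2 at 0.60. That of all tested genes was 0.01, and that of the genes with at least 100 counts was 0.04.

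**Figure D1:**
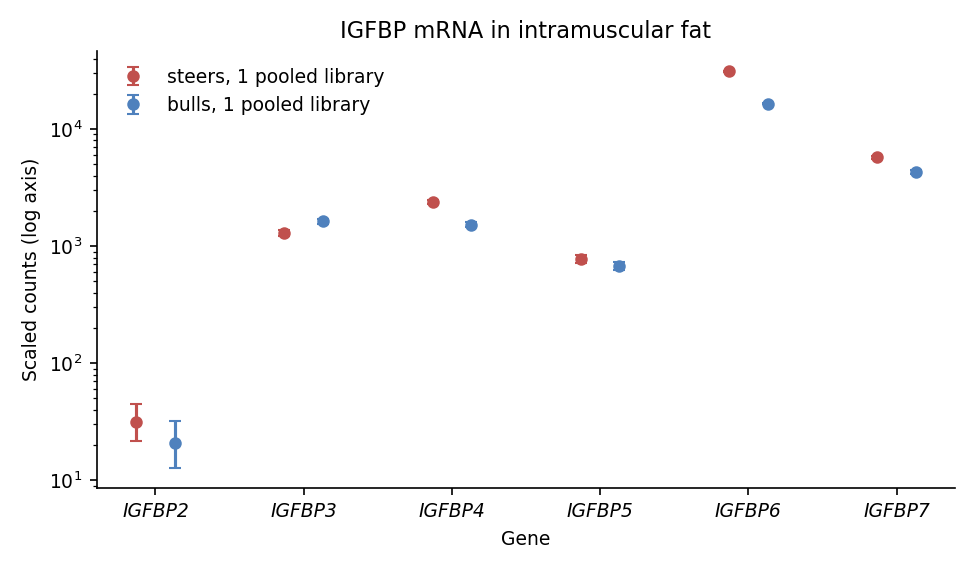
Scaled counts (log axis) of 6 IGF binding protein genes in the pooled libraries of steers and bulls, with 95% exact Poisson intervals as bars, which are smaller than the points for most genes. IGFBP6 lies at 31247 in steers and 16479 in bulls, and IGFBP3 is the gene whose point for bulls, at 1624, is the higher of the pair.

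IGFBP6, a binding protein with a marked preference for IGF2, had 32599 counts in the steer library and 15796 in the bull library. These are 31247 and 16479 scaled counts, a ratio of 1.90 (95% Clopper-Pearson interval 1.86 to 1.93) and log2FC 0.92 (0.90 to 0.95). The whole counting interval therefore lay below the 2-fold threshold. Of the genes with at least 100 counts, 4.08% had a larger log2FC.

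IGFBP4, which is known to restrain IGF action in tissues and is cut by the protease PAPPA, had 2483 counts in the steer library and 1458 in the bull library. Its log2FC was 0.65 (0.55 to 0.74), with an adjusted p of 1.1e-41 in the exact binomial test. IGFBP7, a more distant family member that binds IGFs weakly and is deposited around blood vessels, had 5973 and 4120 counts and log2FC 0.41 (0.36 to 0.47). Both genes were higher in steers, and both intervals stayed below 1 on the log2 scale. A larger log2FC than that of IGFBP4 was found for 9.47% of the genes with at least 100 counts, and a larger one than that of IGFBP7 for 19.3%.

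IGFBP3, the main carrier of IGFs in blood, went the other way, with 1351 counts in the steer library and 1557 in the bull library. The scaled counts were 1295 and 1624, so that bulls had 1.25 times the level of steers, and the log2FC was -0.33 (-0.43 to -0.22) with an adjusted p of 8.8e-09 in the exact binomial test. IGFBP5, which binds to matrix and is prominent in muscle and mesenchymal cells, had 811 counts in the steer library and 653 in the bull library. Its log2FC of 0.19 (0.04 to 0.34) had an adjusted p of 0.0327 in the same test. Neither the direction nor this p was stable to the scaling. With TMM factors the adjusted p of IGFBP5 was 0.0602 in the exact binomial test, and with total counts its log2FC was -0.049 (-0.20 to 0.10).

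IGFBP2, a product of preadipocytes and of many other cells, was scarce, with 33 counts in the steer library and 20 in the bull library. Its log2FC of 0.60 had a counting interval of -0.24 to 1.48 and an adjusted p of 0.298 in the exact binomial test. A 2-fold difference in favour of steers lies inside that interval, so neither a difference nor its absence could be shown for IGFBP2 at this depth.

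**Figure D2:**
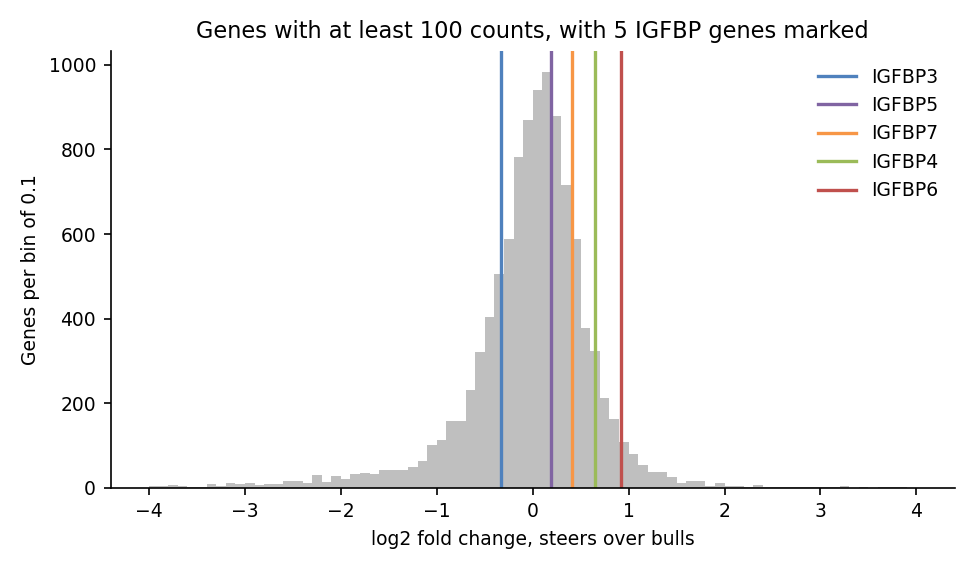
Histogram of the log2FC (steers over bulls) of the genes with at least 100 counts over both libraries, in bins of 0.1, with vertical lines at IGFBP3, IGFBP5, IGFBP7, IGFBP4 and IGFBP6. The axis is limited to 4 in both directions, which leaves out 39 of 10464 genes, and the line of IGFBP6 at 0.92 stands in the right flank while that of IGFBP3 stands at -0.33.

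The size of these differences depended on how the libraries were scaled. The top 10 genes by count made up 18.8% of the steer library and 13.0% of the bull library, and scaling by total counts moved the median log2FC of all tested genes from 0.01 to -0.23. This lowers all log2FC values alike, so that small positive ones given below, such as those of IGF1R, NOV, SOCS2 and DCN, turn negative, and genes close to the fold threshold, such as PAPPA and COL1A1, change side. With that scaling IGFBP6 was at 0.68, IGFBP4 at 0.41, IGFBP7 at 0.17 and IGFBP3 at -0.57. With TMM factors IGFBP6 was at 0.90 and IGFBP3 at -0.35, and with upper-quartile factors they were at 0.94 and -0.31. IGFBP3 was the lower in steers, and IGFBP4, IGFBP6 and IGFBP7 the higher, with each of the 4 scalings.

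**Figure D3:**
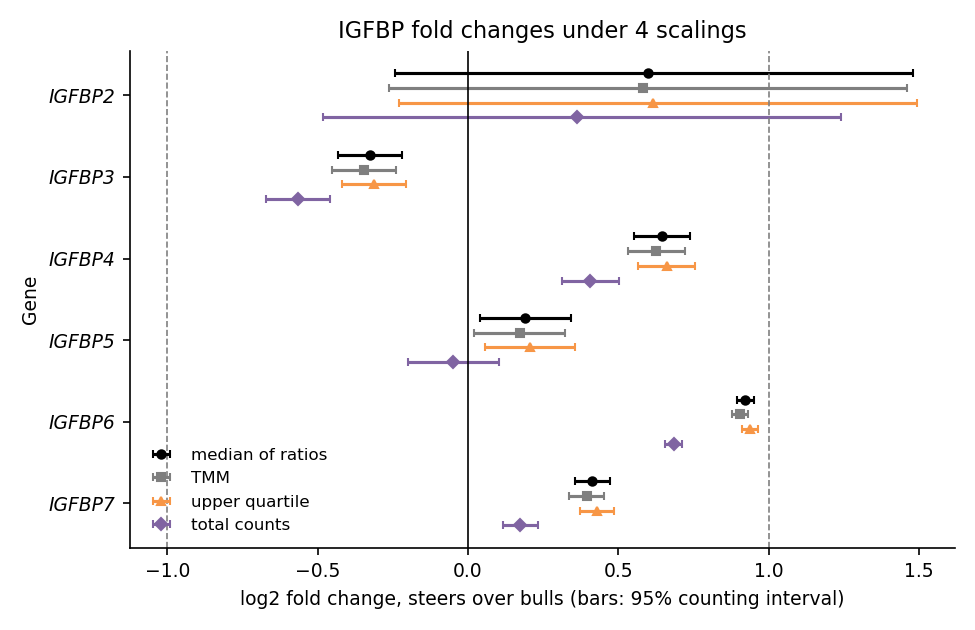
Log2 fold change of each gene (steers over bulls) under 4 scalings of the libraries, with 95% counting intervals as bars and dashed lines at 2-fold. No point passes a dashed line, and IGFBP5 is the gene that changes side, from 0.19 to -0.049 with total counts.

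A comparison within the family does not depend on the scaling. The 6 genes together had 43250 counts in the steer library and 23604 in the bull library, or 0.341% and 0.239% of all counts. These are counts per gene and not per length, so a share below is compared between the libraries and not with the share of another gene. IGFBP6 held 75.4% (exact binomial interval 75.0 to 75.8) of the family's counts in steers and 66.9% (66.3 to 67.5) in bulls. IGFBP3 held 3.12% (2.96 to 3.29) in steers and 6.60% (6.28 to 6.92) in bulls. The share of IGFBP7 was 13.8% in steers and 17.5% in bulls, and that of IGFBP5 1.88% and 2.77%, although the scaled counts of both genes were higher in steers. For IGFBP4 the shares of 5.74% (5.52 to 5.96) and 6.18% (5.87 to 6.49) had overlapping intervals, which is not a test of a difference. The ratio of IGFBP4 to IGFBP6 counts differed between the libraries by -0.28 (-0.38 to -0.18) on the log2 scale.

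**Figure D4:**
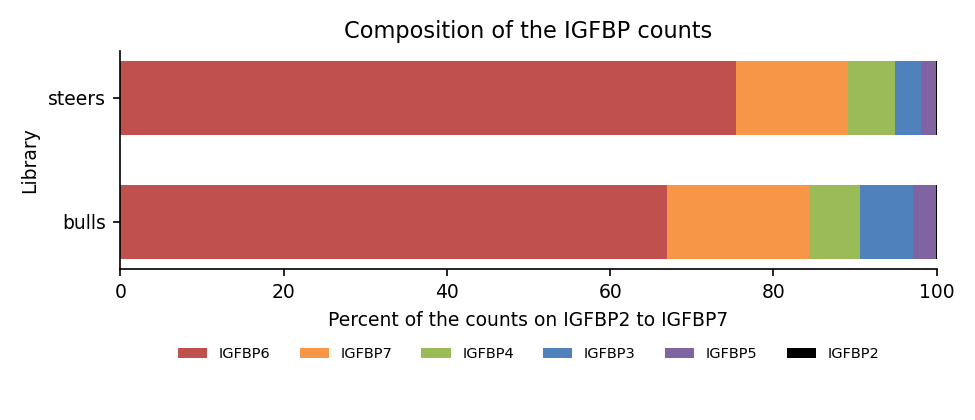
Percent of the counts on IGFBP2 to IGFBP7 that fell on each gene, as stacked bars for the libraries of steers and bulls. The segment of IGFBP6 is 75.4% in steers and 66.9% in bulls, and that of IGFBP3 is 3.12% and 6.60%.

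When IGFBP6 was taken out of the family, the other genes still differed in their proportions. Of the counts on the remaining genes, IGFBP4 then took 23.3% (22.5 to 24.1) in steers and 18.7% (17.8 to 19.6) in bulls. IGFBP3 took 12.7% (12.1 to 13.3) and 19.9% (19.1 to 20.8), respectively, and IGFBP7 took 56.1% and 52.8%.

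Ratios of the counts of 2 members were compared between the libraries for all 15 pairs, with exact conditional 95% intervals of the odds ratio. The interval excluded an equal ratio in 11 pairs, and the 4 pairs in which it did not were those of IGFBP2 with IGFBP4, IGFBP5, IGFBP6 and IGFBP7. The pair of IGFBP3 and IGFBP6 was past 2-fold, with 0.0414 counts of IGFBP3 per count of IGFBP6 in steers and 0.0986 in bulls, a log2 difference of -1.25 (-1.36 to -1.14). IGFBP3 relative to IGFBP4 differed by -0.97 (-1.12 to -0.83) on the log2 scale, with 0.544 counts per count in steers and 1.07 in bulls. The smallest difference among the pairs without IGFBP2 was that of IGFBP5 with IGFBP7, at -0.22 (-0.38 to -0.06).

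In the RefSeq annotation of the assembly ARS-UCD2.0, IGFBP2 and IGFBP5 are neighbouring protein-coding genes, as are IGFBP1 and IGFBP3, whereas IGFBP4, IGFBP6 and IGFBP7 each stand apart from the family. The neighbours IGFBP2 and IGFBP5 had log2FC values of 0.60 and 0.19, and their ratio differed between the libraries by 0.41 (-0.45 to 1.30), an interval that includes both no difference and a 2-fold one.

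None of the growth factors and receptors that these proteins serve was called. IGF2 had 4016 counts in the steer library and 3760 in the bull library, log2FC -0.03 (-0.09 to 0.04), and IGF1 had 125 and 142 counts, or -0.31 (-0.66 to 0.05). IGF1R, the signaling receptor, was at 0.08 (-0.12 to 0.28), and IGF2R, which clears IGF2, at 0.27 (0.18 to 0.36). Of the 7 ligands and receptors listed, 0 were called by the exact binomial test, 1 (INS) had no count, and the median log2FC was 0.03. The share called was 13.2% over all tested genes. Relative to the summed counts of IGF1 and IGF2, the counts of the 6 binding proteins were 10.4 per ligand count in steers and 6.05 in bulls, a log2 difference of 0.79 (0.72 to 0.86). Without IGFBP6 the log2 difference was 0.36 (0.29 to 0.44). For IGFBP3 alone the difference was -0.29 (-0.41 to -0.17), with 0.326 and 0.399 counts per ligand count. These ratios are free of the scaling and refer to mRNA counts only.

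The acid-labile subunit IGFALS, which joins IGFBP3 or IGFBP5 and an IGF in the ternary complex of blood, had 49 counts in the steer library and 11 in the bull library and was called higher in steers, at 2.03 (1.07 to 3.13). IGFBP3 and IGFALS thus differed in opposite directions, and the ratio of their counts, 27.6 in steers and 142 in bulls, differed by -2.36 (-3.46 to -1.39).

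Among the proteases of the binding proteins and their inhibitors, 2 of 8 genes were called higher in steers, 2 were called lower and ADAM28 had no count. ADAM12, a metalloprotease that cuts IGFBP3 and IGFBP5, had 520 counts in the steer library and 143 in the bull library and log2FC 1.74 (1.47 to 2.02). PAPPA, the protease of IGFBP4, had 84 and 34 counts and rose by 1.18 (0.59 to 1.80) on the log2 scale, but was at 0.94 and not called with scaling by total counts. Its relative PAPPA2 was called lower in steers on 4 counts against 15. STC2, a stanniocalcin that inhibits PAPPA, was called lower on 1 count against 8, log2FC -3.12 with an interval of -8.59 to -0.22. STC1, the other stanniocalcin, had 182 and 262 counts and was at -0.65 (-0.93 to -0.37), short of the fold threshold. HTRA1, a secreted serine protease that also carries an IGFBP-like domain, had the most counts of the list, 15734 and 8731, at 0.73 (0.69 to 0.77). The median of this list was 0.25. Among all tested genes, 4.66% were called higher in steers and 8.5% lower. The count of IGFBP4 per count of PAPPA was 29.6 in steers and 42.9 in bulls, a log2 difference of -0.54 whose interval of -1.16 to 0.06 included 0.

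**Figure D5:**
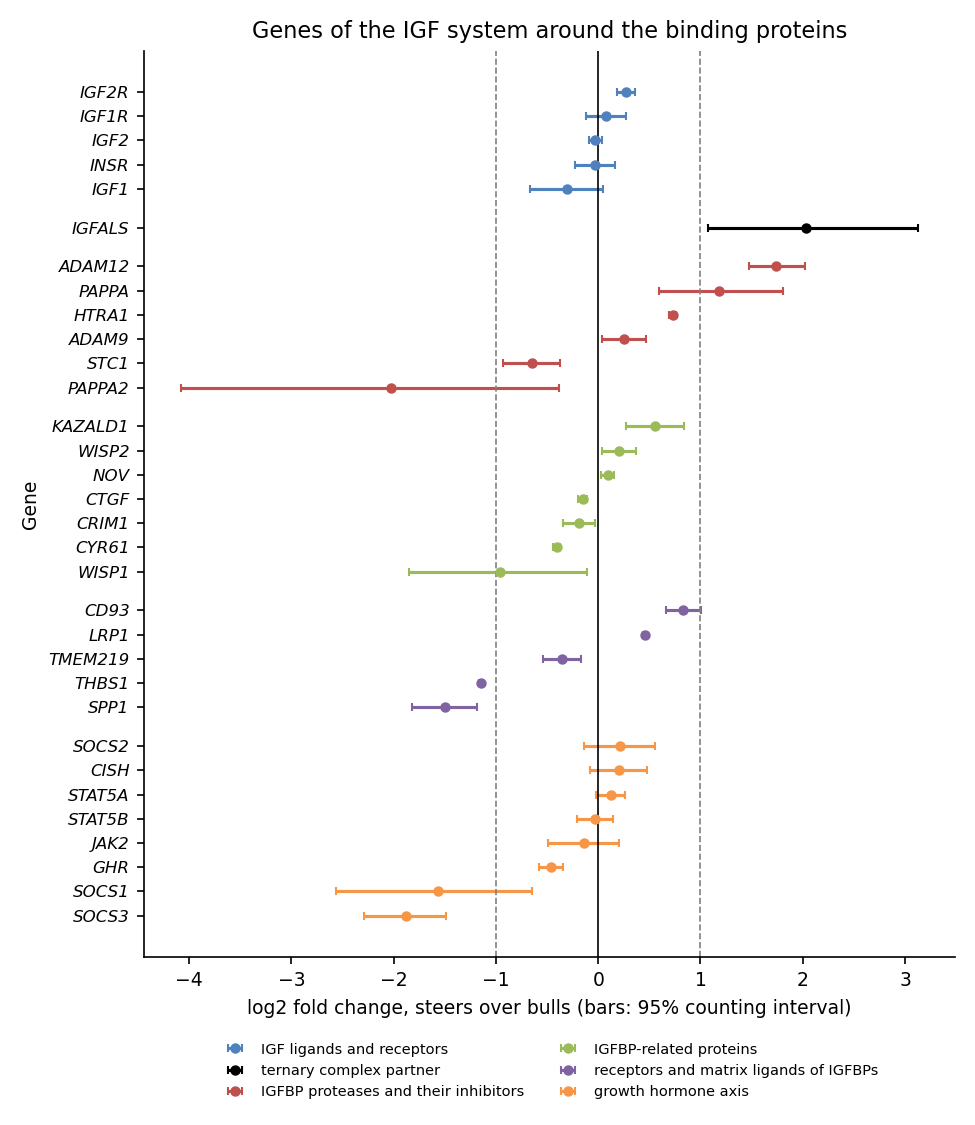
Log2 fold change (steers over bulls) of the reported genes of the IGF system with at least 10 counts in a library, grouped by role, with 95% counting intervals as bars and dashed lines at 2-fold. IGFALS at 2.03 and ADAM12 at 1.74 lie to the right. PAPPA2 at -2.03, SOCS3 at -1.88, SOCS1 at -1.56 and SPP1 at -1.50 lie to the left, and the ligands and receptors stay near 0.

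Of 13 proteins related to the family by an IGFBP-like domain, 11 were analysed and 0 were called, with a median log2FC of -0.03. Since 13.2% of all tested genes were called, 0 calls in so short a list do not set it apart. Of the CCN family, CYR61 was at -0.41 (-0.44 to -0.37), CTGF at -0.15 (-0.20 to -0.11) and NOV at 0.09 (0.03 to 0.15). WISP1 of the same family, with 19 and 34 counts, was at -0.96 (-1.85 to -0.11), and WISP2 was at 0.20 (0.03 to 0.37). IGFBPL1 had 0 and 1 counts, for which no fold is given.

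Proteins that bind the family on cells or in the matrix were called in 2 of 7 cases, both lower in steers, and VTN had no count. THBS1, thrombospondin 1, had 30164 counts in the steer library and 61472 in the bull library, log2FC -1.15 (-1.17 to -1.13). SPP1, osteopontin, had 116 and 302 counts and was at -1.50 (-1.82 to -1.19). CD93, an endothelial receptor of IGFBP7 found in the table by its RefSeq gene number, had 830 and 428 counts and was at 0.83 (0.66 to 1.00). The count of IGFBP7 per count of CD93 was 7.20 in steers and 9.63 in bulls, a difference of -0.42 (-0.60 to -0.24) on the log2 scale. TMEM219, a receptor of IGFBP3, was at -0.36 (-0.54 to -0.17), next to -0.33 for IGFBP3 itself, and the ratio of the pair differed by 0.03 (-0.18 to 0.24). The median over this list was 0.05, and 8.5% of all tested genes were called lower in steers.

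The growth hormone axis, which drives IGF1 and IGFBP3 production in liver, had 2 of 8 genes called, both lower in steers. These were SOCS3, with 69 and 233 counts at -1.88 (-2.29 to -1.48), and SOCS1, with 14 and 38 counts at -1.56 (-2.56 to -0.65), feedback inhibitors of cytokine signaling. The receptor GHR was at -0.46 (-0.58 to -0.34) and SOCS2, a growth hormone target, at 0.21 (-0.13 to 0.56). The other 6 genes of the list were not called, and the list's median was -0.09. Among all tested genes, 8.5% were called lower in steers. Of 4 steroid receptors, 0 were called, beside 13.2% of all tested genes called in either direction, and ESR1 had 62 counts in each library.

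Fibroblast markers had 8 of 10 genes above 0, with a median log2FC of 0.74. Called higher in steers were 2 of the 10, COL3A1 at 1.27 and COL1A1 at 1.00. The share called higher was 4.66% of all tested genes and 3.3% of those with at least 100 counts. The summed scaled counts of the 10 markers were 1161430 in steers and 600181 in bulls. Most of both sums came from the collagens COL1A1, COL1A2 and COL3A1. The markers below 0 were PDGFRA, at -0.48 (-0.57 to -0.40), and DPP4, with 21 and 27 counts. IGFBP6 at 0.92 lay close to THY1 at 1.00 and above PI16 at 0.55, and 5 of the 10 fibroblast markers had a larger log2FC. The count of IGFBP6 per count of THY1 was 0.915 in steers and 0.964 in bulls, a log2 difference of -0.08 (-0.11 to -0.04), whereas per count of DCN, a proteoglycan at 0.04, it differed by 0.89 (0.86 to 0.92). The part of the fibroblast transcripts in the difference of IGFBP6 was not tested.

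IGFBP7 was set beside the markers of vessel cells. Of 10 endothelial and 10 mural markers, 0 were called, and their median log2FC values were -0.14 and 0.04. The share called was 13.2% of all tested genes and 9.97% of those with at least 100 counts. In each of these lists 1 gene had a larger log2FC than IGFBP7. Per count of PECAM1, IGFBP7 was higher in steers by 0.25 (0.16 to 0.33) on the log2 scale, per count of VWF by 0.60 (0.51 to 0.69) and per count of the pericyte gene PDGFRB by 0.36 (0.28 to 0.44).

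Myeloid and T cell markers were lower in steers. As background for the calls in this paragraph, 8.5% of all tested genes were called lower in steers and 4.66% higher. All 8 myeloid markers were below 0, 6 were called, and the median was -1.70, with summed scaled counts of 19487 in steers and 44121 in bulls. The 5 T cell markers were all called lower, on 71 counts in the steer library and 581 in the bull library. Their median was -3.62 or lower, a bound set by CD3G, whose 0 counts in the steer library, against 34 in the bull library, were put at the floor of 3. The B cell markers MS4A1 and CD79B were at 0 in both libraries. Epithelial markers were scarce, with 236 counts in the steer library and 30 in the bull library and 3 of 4 called higher in steers. The Schwann cell marker S100B had 1791 and 1292 counts, at 0.35 (0.24 to 0.45). The myogenic gene MYF5 was called higher in steers on 17 counts against 1, and PAX7 had no count. The adipocyte markers had a median of -0.02, with CIDEA and LPL called higher and FABP4 lower in steers, and the muscle markers one of -0.66. What these cell types contributed to the values of the IGF binding proteins was not tested.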

How the data were processed

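IMF mRNA was compared between 1 pooled library of steers and 1 of bulls, grouped by the treatment in their labels. The authors removed adaptors and low-quality reads, aligned with MapSplice to the bovine genome and deposited raw read counts per gene. How reads were assigned to genes, and whether by strand, is not given in the sources used here, so reads of overlapping antisense genes cannot be separated. The miRNA counts were not used here, and a few single genes of the lists are not reported.

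Median-of-ratios size factors (numpy 2.4.6) scaled the libraries, and a two-sided exact binomial test (scipy 1.17.1) compared them gene by gene, adjusted by Benjamini-Hochberg over the 17752 genes whose counts summed to at least 1. Calls needed both an adjusted p below 0.05 and a log2FC beyond 1 in size. Intervals of log2FC and of shares are 95% Clopper-Pearson intervals, those of scaled counts are exact Poisson intervals, and those of ratios of counts are exact conditional intervals. Reads are not independent molecules, so intervals cover counting error only. No fold is given where both libraries had at most 3 counts, and a count of 0 was put at 3 in list medians.

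All 7 family members were to be named. Genes of the IGF lists could be named if they were called, had the most counts in their list or passed 2-fold with at least 10 counts in a library. Not every such gene is named. Other genes named for their role (IGF1R, STC1 or CD93, for example), single marker genes and the genes set in ratio with a member were chosen after their values were seen. The members and lists were chosen with earlier results of these data known. Alternatives were total counts, TMM from edgeR 4.0.16 under R 4.3.3, upper-quartile factors, a minimum of 10 counts, edgeR's exact test with an assumed biological coefficient of variation of 0.2 or 0.4, no fold threshold, and the family without IGFBP7. Levels per length and sequences were not used here, since the reference at hand gives neither transcript lengths nor sequences, and its coordinates are of another build than the alignment.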

Additional observations from a re-analysis of the deposited data

How the results depend on the processing

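Of the 6 IGF binding proteins, 0 were called with any of the 4 scalings, with a minimum of 10 counts or with an assumed coefficient of variation. Without a fold threshold 5 were called, and the genes called were 3619 higher and 3354 lower in steers, compared with 827 and 1509. IGFBP5 reversed with total counts, at -0.049, since that scaling shifts all genes by the same amount. With a coefficient of variation of 0.2 assumed in edgeR's exact test, 0 members had an adjusted p under 0.05, and 368 genes were called higher and 762 lower. With 0.4 the calls were 52 and 93. Total counts moved the share of calls that were higher in steers from 35.4% to 21.9%. At 0.2, IGFALS, ADAM12, SPP1 and SOCS3 were still called and PAPPA, PAPPA2, STC2, THBS1 and SOCS1 were not, and with 0.4 none of these 9 was. Without IGFBP7 in the family, IGFBP6 held 87.5% of its counts in steers and 81.1% in bulls, and IGFBP3 3.62% and 7.99%. With 1 library per group, no library could be left out and the spread between animals is unknown. No paired analysis was possible because each group has 1 mRNA library. Shares and levels per kb of length were not run, since no transcript lengths were at hand. Depth limits IGFBP2, with 33 and 20 counts, PAPPA2 with 4 and 15, and STC2 with 1 and 8, which the minimum of 10 counts removes. The adjusted p of IGFBP5 was over 0.05 in the exact binomial test with TMM factors, at 0.0602, and with total counts, at 0.663.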
